A study of Acipenser transmontanus and Acipenser medirostris with 18 samples.

Results

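This comparison set a mouth rim epithelial culture of dodecaploid white sturgeon against a mouth rim epithelial culture of octaploid white sturgeon (Acipenser transmontanus), with another octaploid mouth rim culture as the measure of how far octaploid cultures lay apart. The members were chosen by the ploidy and tissue labels: 3 of the 18 libraries of the series, of which 1 was dodecaploid (library W12) and 2 were octaploid (libraries W8 and WM). White sturgeon are ancient polyploids whose regular state is octaploid. Dodecaploid fish arise when an egg keeps a set of chromosomes that it would normally shed, and their nuclei and cells are larger in proportion. The lip of a sturgeon is covered by a stratified epithelium that sits on a basement membrane through hemidesmosomes, holds together through desmosomes and tight junctions, and is filled with keratin filaments.

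Each library was made from polyadenylated RNA of cultured cells and read as full-length transcripts by PacBio Iso-Seq, and counts were summed over the PacBio locus (named PB. and a number). All 3 cultures carried the label epithelial, came from explants of the mouth rim, and were fed a medium with 5% fetal bovine serum, EGF, hydrocortisone, insulin, transferrin and the kinase inhibitor Y27632. The labels did not give the fish or the passage of a culture. They gave each of these 3 libraries its own barcode number as batch, so ploidy, fish, culture and barcode cannot be told apart. Across the whole series barcode numbers recurred. Counts are shares of a library, so a change of the RNA content of a whole cell would not appear in them, and fewer cells of a type and less RNA per cell cannot be told apart. The 2 octaploid skin cultures (WS1 and WS2), the mouth rim tissue and a green sturgeon culture of fibroblasts and adipocytes served as side values.

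The deposited table held 70537 transcripts at 13249 loci. Libraries W12, W8 and WM held 114901, 124651 and 96708 counts, so that 1 count stood for 8.70, 8.02 and 10.3 CPM (counts-per-million, the share of the library total). At least 1 count was found at 6633 loci in W12, 6505 in W8 and 6506 in WM. The most abundant locus was the same keratin (PB.22701) in each, at 7.89% of W12, 7.77% of W8 and 2.96% of WM. No test across loci was run, as the dodecaploid side held 1 library. A locus was called different between 2 libraries when its share differed at least 2-fold and the exact 95% interval of the ratio, which covers counting error only, lay beyond 1, among loci with at least 20 counts over the libraries compared.

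The dodecaploid culture was closer to octaploid culture W8 than the 2 octaploid mouth cultures were to each other. Between W12 and W8, 185 of 1758 loci were called (10.5%), 127 higher (7.22%) and 58 lower (3.3%) in the dodecaploid library. Between W8 and WM, both octaploid, 588 of 1760 loci were called (33.4%), 215 higher (12.2%) and 373 lower (21.2%) in W8. With DESeq2 size factors that split was 281 and 283. Between W12 and WM 582 of 1779 were called (32.7%), 234 higher (13.2%) and 348 lower (19.6%) in W12. The chi-square per degree of freedom over these loci, which would be near 1 if counting error alone separated the libraries, was 4.16 for W12 against W8, 13.7 for W12 against WM and 14.9 for W8 against WM. Over loci with at least 50 counts in each of the libraries compared, the SD of the log2 ratio was 0.48 for W12 against W8 and 0.92 for W8 against WM, beside 0.20 that counting error alone gives in either pair. The octaploid skin cultures differed at 123 of 1895 loci, with a chi-square per degree of freedom of 2.92. Of the 588 loci that separated the octaploid mouth cultures, the dodecaploid level was nearer to W8 at 478 and nearer to WM at 110. The excess of higher over lower calls between W12 and W8 depended on scaling: the 127 higher and 58 lower loci became 108 and 77 with TMM-scaled totals and 95 and 97 with DESeq2 size factors, which moved the median log2 ratio of all 1758 loci from 0.10 to -0.03.

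**Figure D1:**
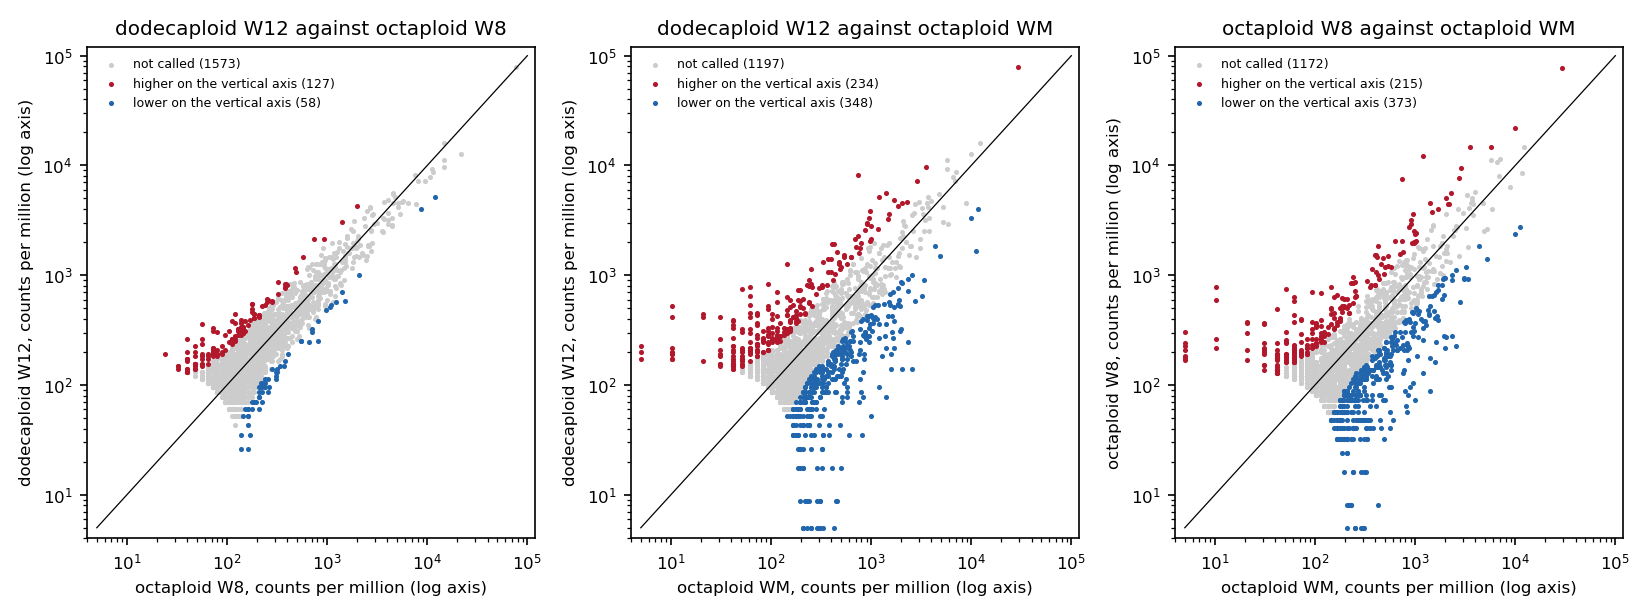
Level of each locus, in CPM, in the vertical library against the horizontal one (log axes; points are loci with at least 20 counts over the pair, values under 5 CPM drawn at 5, the line marks equality), with called loci in red (higher on the vertical axis) and blue (lower). The cloud of W12 against W8 is narrower, with 185 called loci, than the clouds against WM, with 582 and 588.

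Since a single octaploid library cannot give a spread, the loci of interest are those at which W12 lay at least 2-fold beyond both octaploid mouth cultures in the same direction. These were 75 of 2348 loci (3.19%), 43 higher (1.83%) and 32 lower (1.36%) in the dodecaploid culture. Both ratios share the dodecaploid library, so they are not independent of each other. Of the 43 higher loci, 34 kept the call with TMM-scaled totals and 32 with DESeq2 size factors, and of the 32 lower loci 26 and 28 did. With newly gained loci counted, the split became 39 higher and 33 lower with TMM-scaled totals and 36 and 43 with DESeq2 size factors. When the skin cultures were added as further octaploid libraries, 16 of the 43 and 7 of the 32 were also called against each of them in the same direction. With 1 dodecaploid library, whether these loci follow ploidy or that culture was not tested.

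The 12 leading higher loci were those with the highest ratio to W8 among the loci with at least 30 counts in W12. The locus of uncharacterized protein LOC117406819 (PB.27217) had 30 counts in W12, 5 in W8 and 11 in WM, a ratio of 6.51 to W8 (2.50 to 21.5), but skin cultures WS1 and WS2 held 28 and 23. Syntaxin-7-like (PB.6183), a fusion protein of late endosomes, had 35, 10 and 13 counts, 3.80-fold over W8 (1.84 to 8.60). Integrin alpha-6-like (PB.10520), the laminin receptor subunit of the hemidesmosome, was the most abundant of the 12 leading higher loci, with 243, 93 and 66 counts. Its share was 2.83-fold that of W8 (2.22 to 3.64) and 3.10-fold that of WM (2.35 to 4.13). Skin culture WS2 at 1933 CPM came near the 2115 CPM in W12, while WS1 stood at 772 CPM.

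HEAT repeat-containing protein 1 (PB.6025) and RRP15-like protein (PB.6360), both factors of ribosome assembly in the nucleolus, had 44, 14 and 17 and 36, 13 and 14 counts, which were 3.41-fold (1.83 to 6.74) and 3.00-fold (1.56 to 6.17) over W8. For RRP15-like protein, skin culture WS1 at 262 CPM came near the 313 CPM in W12, while WS2 stood at 133 CPM. HEAT repeat-containing protein 1 was at 193 and 144 CPM in WS1 and WS2, beside 383 CPM in W12. The cystine/glutamate transporter-like locus (PB.2472), which imports cystine for glutathione synthesis, had 45, 17 and 4 counts. It was 2.87-fold over W8 (1.61 to 5.35) and 9.47-fold over WM (3.45 to 36.3), yet both skin cultures held it at like levels, with 42 and 52 counts. Perilipin-3-like (PB.28494), a coat protein of lipid droplets, had 42, 17 and 7 counts and stayed low in the skin cultures at 7 and 13. The remaining leading loci had 30 to 51 counts in W12 and ratios to W8 of 2.32 to 2.51. They encoded proteasome subunit beta type-4 (PB.23241), the actin nucleator relative cordon-bleu protein-like 1 (PB.12042), the translation factor ABCF1-like (PB.22958, named ATP-binding cassette sub-family F member 1-like), glutathione S-transferase Mu 3-like (PB.21806) and chromobox protein homolog 5 (PB.28074), a heterochromatin protein. Of these 5, cordon-bleu protein-like 1 was higher still in the skin cultures, with 65 and 55 counts against 37 in W12.

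Of the 12 leading lower loci, chosen in the same way with at least 30 counts in W8, the more abundant are given first. CD63 antigen (PB.25651), a tetraspanin of late endosomes and exosomes, was by far the most abundant of them. It had 457 counts in W12, 1073 in W8 and 1117 in WM, and 1369 and 714 in the skin cultures. Its share in W8 was 2.16-fold that of W12 (1.94 to 2.42) and in WM 2.90-fold (2.6 to 3.25), and W12 was the lowest of the 5 cultures. Small integral membrane protein 14-like (PB.213) had 67, 187 and 264 counts, with W8 2.57-fold (1.94 to 3.45) and WM 4.68-fold (3.57 to 6.22) over W12, and 258 and 166 counts in the skin cultures. Transforming growth factor-beta-induced protein ig-h3-like (PB.21978), a secreted adhesion protein of the matrix, had 35, 88 and 157 counts. Peptidyl-glycine alpha-amidating monooxygenase (PB.1165), which amidates secreted peptides, had 28, 83 and 74 counts and was again lowest in W12, as the skin cultures held 130 and 88.

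Grainyhead-like protein 3 homolog (PB.20080), a transcription factor of epidermal barrier formation in mammals, had 22, 51 and 153 counts, with WM 8.26-fold over W12 (5.26 to 13.6) and the interval of W8 over W12 at 1.27 to 3.70. Nuclear factor erythroid 2-related factor 2-like (PB.11989), the regulator of antioxidant genes, had 29, 68 and 59 counts. Claudin-4-like (PB.20900), a tight junction protein, had 16, 39 and 51. Tripartite motif-containing protein 16-like (PB.15523) had the lowest ratio to W8 of these 12, with 29 counts against 100 and 59, and W8 was 3.18-fold over W12 (2.08 to 4.99). In the skin cultures, however, it was at 41 and 24 counts, or 316 and 267 CPM beside 252 in W12, so that W8 and WM were the high libraries. The other 4 leading loci had 11 to 17 counts in W12 and 29 to 46 in each octaploid mouth culture: saccharopine dehydrogenase-like oxidoreductase (PB.5862), V-type proton ATPase subunit H (PB.4131), Golgi reassembly-stacking protein 2-like (PB.12013) and integral membrane protein 2C-like (PB.28495). Of these 4, integral membrane protein 2C-like was at 178 CPM in skin culture WS2, near the 148 CPM in W12, and at 309 CPM in WS1. Another locus named Golgi reassembly-stacking protein 2-like (PB.10531) had more counts in W12, at 35, with 48 in W8 and 42 in WM.

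**Figure D2:**
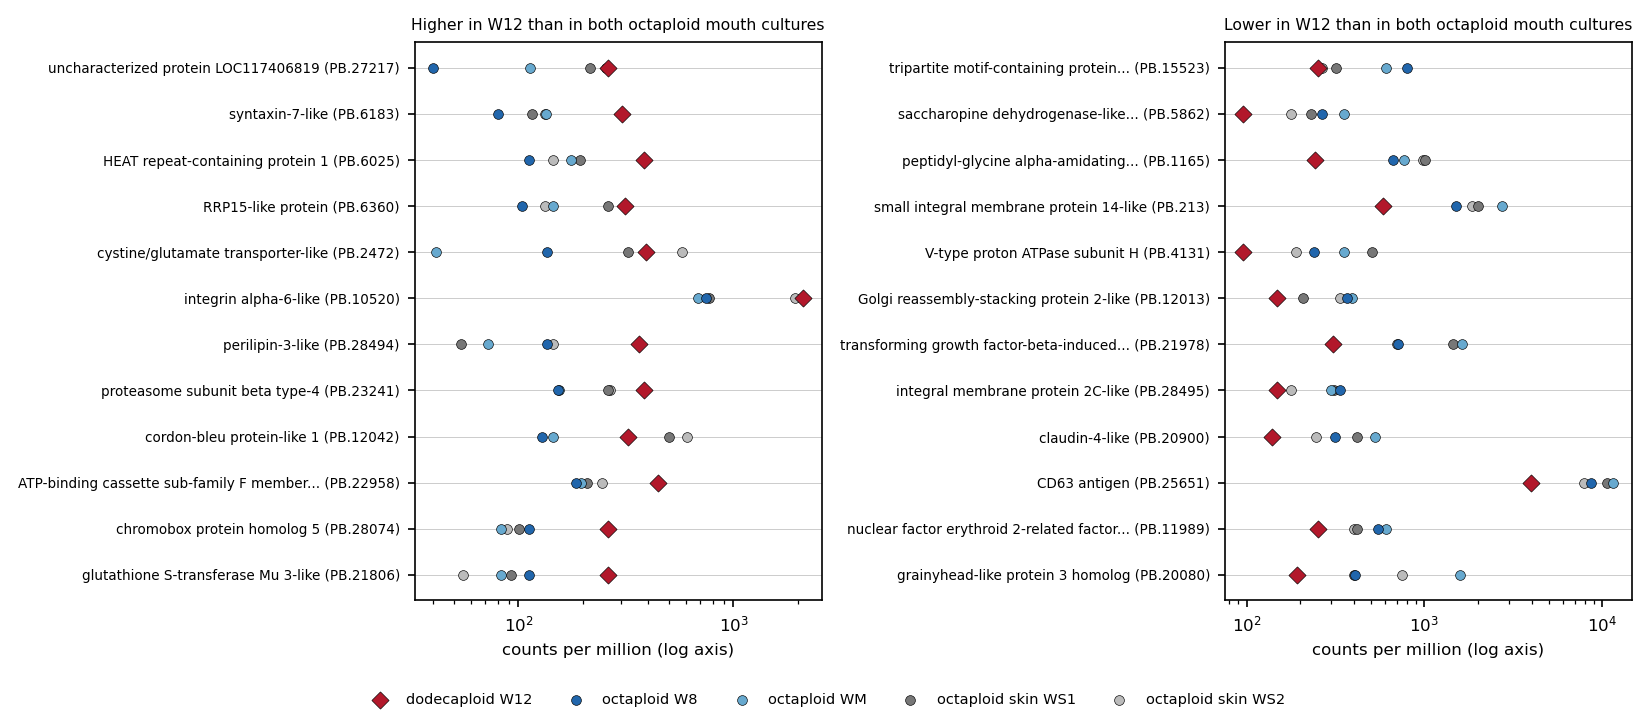
Level of the 12 leading loci in CPM (log axis) in each direction, in W12 (red diamonds), octaploid mouth cultures W8 and WM (blue circles) and octaploid skin cultures (grey circles). The diamond lies beyond both blue circles in every row because the rows were chosen for that, while grey circles reach or pass it in several, such as the cystine/glutamate transporter and cordon-bleu.

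Summed keratin levels of W12 and W8 were close, and both stood above the other 3 octaploid white cultures. Type I keratins, the acidic partners of the keratin filament, made up 8.78% of W12 (Wilson 95% interval 8.62 to 8.94), 8.57% of W8 (8.41 to 8.72) and 3.06% of WM (2.96 to 3.17), with 3.49% and 4.00% in the skin cultures. The ratio of W12 to W8 was 1.02 (0.997 to 1.05), or 0.935 with DESeq2 size factors, and that of W8 to WM was 2.80. The leading keratin locus PB.22701 had 9069, 9689 and 2859 counts and the next, PB.22698, had 941, 932 and 72. Type II keratins, the basic partners, were at 0.252%, 0.237% and 0.104%. The type II list held only 2 loci and the type I list 5. In W12 all transcripts named keratin summed to 11137 counts, beside 10086 in the type I list and 289 in the type II list. The rest lay in neither list, so these shares may not hold the whole of either type. Apart from these lists stood a minor keratin locus (PB.20749, named only keratin), with 90 counts in W12, 47 in W8 and 6, 4 and 1 in WM, WS1 and WS2. It was 2.08-fold over W8 (1.44 to 3.02), and W12 and W8 together stood far above the other 3 white cultures. Keratin locus PB.25257 went the other way, with 0 counts in W12 and W8 and 24, 6 and 4 in WM, WS1 and WS2. The mouth rim tissue held 1258 counts of it.

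Of the desmosome proteins, which tie keratin filaments to the cell border, desmoplakin was higher in the dodecaploid culture and plakophilin was not. Desmoplakin-like, which links the plaque to keratin, had 487, 246 and 181 counts at its main locus (PB.4242). It was 2.15-fold over W8 (1.84 to 2.51) and 2.26-fold over WM (1.91 to 2.70), and skin culture WS2 with 3722 CPM came near the 4238 of W12. Summed over all transcripts of that name, desmoplakin had 587, 286 and 232 counts, 2.23-fold over W8 (1.93 to 2.57). Plakophilin-1-like (PB.21755), a plaque protein, had 525, 798 and 859 counts, with W8 1.40-fold (1.25 to 1.57) and WM 1.94-fold (1.74 to 2.17) over W12. Of the 6 desmosome loci with enough counts, 2 were called higher and 0 lower against W8, beside 7.22% and 3.3% of all loci.

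The list of hemidesmosome, laminin and integrin genes, which anchor the basal cell to its basement membrane, took 1.32% of W12, 0.85% of W8 and 1.47% of WM. It was 1.56-fold over W8 (1.44 to 1.69) but lower than in WM, where the ratio was 0.904 (0.84 to 0.973). The split lay within the list. Integrin alpha-6 exceeded both octaploid mouth cultures, whereas laminin subunit beta-3 (PB.21798) had 354 counts in W12, 174 in W8 and 508 in WM. Collagen alpha-1(XVII) chain (PB.12291), a transmembrane hemidesmosome collagen, had 473, 335 and 308 counts, 1.53-fold over W8 (1.33 to 1.77). Tensin-4-like (PB.22695), a focal adhesion adaptor, had 34, 18 and 6 counts, and only 4 and 3 in the skin cultures. Of the 16 loci tested, 3 were called higher and 0 lower against W8, beside 7.22% and 3.3% of all loci, and 2 of 20 were higher than both octaploid mouth cultures, beside 1.83%.

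The list of tight and adherens junction genes, which also held connexins of gap junctions, took 1.34% of W12 and 1.27% of W8 but 2.55% of WM. Of its 18 loci, 3 were lower in W12 than in both octaploid mouth cultures, with 0 higher, beside 1.36% and 1.83% of all loci. Against W8 alone, 1 of 12 was called higher and 3 lower, the higher one being gap junction alpha-1 protein (PB.5086), a connexin, with 33, 12 and 86 counts. Besides claudin-4, the loci lower than in both were gap junction beta-4 protein (PB.22167), another connexin, with 44, 101 and 162 counts, and catenin beta-1-like (PB.4393) with 11, 29 and 27. Gap junction beta-4 was also at 158 and 136 counts in the skin cultures, so that W12 was the lowest of the 5. The more abundant catenin beta-1 locus (PB.3066) had 290, 343 and 256 counts, and B-cadherin-like (PB.15130), the adherens junction cadherin of the list, 381, 293 and 966. For cornified envelope plakins and transglutaminases, which build the cell border of surface cells, the shares were 0.172%, 0.161% and 0.216%. Against W8, 0 of 6 loci were called in either direction, beside 10.5% of all loci.

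Genes of the ribosome separated W8 from every other white culture rather than W12 from the octaploid ones. Cytosolic ribosomal proteins took 1.01% of W12 (0.958 to 1.07), 0.546% of W8 (0.506 to 0.588) and 1.34% of WM (1.27 to 1.41), with 1.21% and 1.02% in the skin cultures. The ratio of W12 to W8 was 1.86 (1.69 to 2.05), and that of W12 to WM was 0.757 (0.699 to 0.82), so the sign turned with the octaploid library. Against W8, 7 of the 24 loci tested were called higher and 0 lower, beside 7.22% higher among all loci, and the median log2 ratio of the list was 0.85 beside 0.10 over all loci. None of the 43 loci tested over the 3 libraries (0) exceeded both octaploid mouth cultures, beside 1.83% of all loci. The most abundant, 60S acidic ribosomal protein P0 (PB.11515), had 93, 50 and 110 counts. 60S ribosomal protein L18a-like (PB.7552) had 41, 7 and 26.

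Ribosome assembly factors behaved differently, as 6 of their 64 loci lay above both octaploid mouth cultures and 0 below, beside 1.83% higher among all loci. This list was added after the leading loci had been seen, so its count is no independent evidence. Besides HEATR1 and RRP15, the 6 were ribosomal L1 domain-containing protein 1-like (PB.12732; 77, 40 and 27 counts), U3 small nucleolar RNA-associated protein 4 homolog (PB.18438; 66, 31 and 11), nucleophosmin-like (PB.14154; 36, 19 and 8), a major nucleolar chaperone, and a probable 28S rRNA methyltransferase (PB.20828; 18, 6 and 4). For the U3-associated protein, part of the complex that processes the precursor of the small subunit RNA, the skin cultures were at 15 and 8 counts, and W12 was the highest of the 5. The count of 6 depended on scaling. Ribosomal L1 domain-containing protein 1-like and nucleophosmin-like were 2.09-fold and 2.06-fold over W8, and both fell under 2-fold with TMM-scaled totals and with DESeq2 size factors. Nucleolin-like (PB.10805), the most abundant of the list, had 403, 349 and 250 counts and was 1.25-fold over W8 (1.08 to 1.45). The whole list took 1.98%, 1.51% and 1.95%, so its summed share did not set W12 apart from WM (ratio 1.02, 0.956 to 1.08). Translation factors took 2.65%, 2.29% and 3.09%, with 6 of 33 loci called higher and 1 lower against W8, beside 7.22% and 3.3% of all loci, and 0 of 41 beyond both.

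The list of cathepsins and lysosome genes had its lowest summed share in the dodecaploid culture. The list took 1.03% of W12 (0.975 to 1.09), 1.60% of W8 (1.53 to 1.67) and 3.12% of WM (3.02 to 3.23), with 2.23% and 1.70% in the skin cultures. W8 exceeded W12 1.55-fold (1.44 to 1.67) and WM exceeded it 3.03-fold (2.83 to 3.24). Much of the gap to W8 was CD63, and without that locus the ratio of W12 to W8 rose from 0.644 to 0.856 (0.775 to 0.944). Against W8, 4 of 26 loci were called lower and 2 higher, beside 3.3% and 7.22% of all loci. Of 39 loci, 3 were lower in W12 than in both octaploid mouth cultures and 0 higher, beside 1.36% and 1.83%: CD63, V-type proton ATPase subunit H, a regulator of the proton pump that acidifies lysosomes, and ceroid-lipofuscinosis neuronal protein 5 (PB.8983; 7, 20 and 27 counts), a lysosomal protein. The pump's catalytic subunit A-like locus (PB.9681) had 82, 125 and 228 counts and cathepsin B-like (PB.5308), a lysosomal protease, 62, 99 and 101. Cathepsin Z-like (PB.19858) went the other way against W8, with 22 counts against 10, but WM held 82. For ceroid-lipofuscinosis neuronal protein 5, skin culture WS2 at 66.7 CPM was close to the 60.9 CPM of W12, while WS1 stood at 208 CPM.

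Energy metabolism genes had their lowest summed shares in WM among the 5 white cultures. Glycolysis and citric acid cycle genes took 5.71% of W12, 7.26% of W8 and 3.33% of WM, with 4.87% and 4.51% in the skin cultures. The share in W8 was 1.27-fold that in W12 (1.23 to 1.31). Pyruvate kinase PKM-like (PB.21074), the last enzyme of glycolysis, had 1463, 2706 and 951 counts, with W8 1.70-fold over W12 (1.60 to 1.82). L-lactate dehydrogenase A chain (PB.20399), which turns pyruvate into lactate, had 1123, 1836 and 339, with W8 1.51-fold over W12 (1.40 to 1.62). Glyceraldehyde-3-phosphate dehydrogenase (PB.18488), a common reference gene, had 834, 1000 and 672 counts, with W8 1.11-fold over W12 (1.01 to 1.21). Of the 24 loci tested, 0 were called higher against W8 and 1 lower, near the 3.3% of all loci. It was fumarate hydratase (PB.5685; 3, 17 and 10 counts), a citric acid cycle enzyme that was also lower than in WM.

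The respiratory chain went in the other direction. Its genes took 1.61% of W12, 1.3% of W8 and 0.769% of WM, with 1.09% and 1.07% in the skin cultures, and W12 was 1.24-fold over W8 (1.16 to 1.32) and 2.09-fold over WM (1.92 to 2.28). Of 24 loci, 3 were called higher and 0 lower against W8, beside 7.22% and 3.3% of all loci. Of 29 loci, 1 lay above both octaploid mouth cultures, beside 1.83% of all loci, cytochrome c1 (PB.21401) of the third complex, with 95, 47 and 9 counts and 42 and 31 in the skin cultures. Its share was 2.19-fold that of W8 (1.53 to 3.18) and 8.88-fold that of WM (4.49 to 20). The most abundant locus of the list, ATP synthase subunit beta (PB.10543), had 321, 295 and 97 counts.

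Ornithine decarboxylase-like (PB.5830), the first enzyme of polyamine synthesis, was among the abundant loci called lower against W8. It had 590 counts in W12 and 1504 in W8, with W8 2.35-fold over W12 (2.13 to 2.59). In WM, however, it had 115 counts, so W12 was 4.32-fold over that octaploid culture (3.53 to 5.32) and lay between the octaploid values. The skin cultures had 283 and 182. The other polyamine loci did not follow it, and without PB.5830 the list's ratio of W12 to W8 was 1.01 (0.863 to 1.19).

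In the cell cycle and DNA replication list, 4 of 41 loci were called higher and 0 lower against W8, and all 4 also exceeded WM (4 of 49 loci). The share against W8 was near the 7.22% higher among all loci, and 1.83% of all loci lay above both. These were targeting protein for Xklp2-A-like (PB.19793), a spindle assembly factor with 123, 61 and 36 counts, condensin-2 complex subunit D3-like (PB.25071), which compacts chromosomes, with 48, 26 and 6, rac GTPase-activating protein 1 (PB.25405), which acts in cytokinesis, with 29, 15 and 11, and the spindle motor kinesin-like protein KIF11 (PB.12550) with 27, 14 and 7. The 4 ratios to W8 were 2.00 to 2.19, just above the 2-fold limit, so these calls depended on scaling. With TMM-scaled totals only targeting protein for Xklp2-A-like stayed above that limit, and with DESeq2 size factors all 4 fell under it. The skin cultures, however, reached similar levels, as the spindle factor stood at 1070 CPM in W12 and 1067 CPM in WS2, and KIF11 at 235 and 289 CPM. The whole list took 1.63%, 1.3% and 0.883%, with 1.60% and 1.96% in the skin cultures. Markers of proliferation (replication licensing factors, mitotic cyclins, Ki-67) summed to 0.138% of W12, 0.129% of W8 and 0.0507% of WM, and none of their 4 tested loci (0) was called against W8, beside 10.5% of all loci. Their part in these 4 calls was not tested.

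For histones and chromatin regulators, 5 of 20 loci were called higher and 1 lower against W8, beside 7.22% and 3.3% of all loci. Of 26 loci, 2 were higher than both octaploid mouth cultures and 1 lower, beside 1.83% and 1.36% of all loci. The higher ones were chromobox protein homolog 5 and the lymphocyte-specific helicase (PB.7750; 22, 8 and 1 counts), a chromatin remodeller. Histone H1.0-like (PB.13599), a linker histone of resting cells, was lower than both, with 13, 30 and 33 counts. The abundant histone-binding protein RBBP4 (PB.22185) had 245, 251 and 96 counts and a ratio to W8 of 1.06 (0.884 to 1.27). The p53 and DNA damage list had 0 of 15 loci called against W8, beside 10.5% of all loci in either direction. Its leading member, p53 apoptosis effector related to PMP-22 (PB.6483), a desmosomal membrane protein of stratified epithelia, had 1282, 1847 and 555 counts.

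Among stress and defence genes, the antioxidant list summed to like shares (0.518%, 0.525% and 0.566%) while single members moved apart. Of its 21 loci, 2 were higher than in both octaploid mouth cultures and 1 lower, beside 1.83% and 1.36% of all loci. The higher ones were the cystine/glutamate transporter and glutathione S-transferase Mu 3, and the lower one was nuclear factor erythroid 2-related factor 2. Lysozyme and antimicrobial genes took 0.668% of W12 (0.622 to 0.716), 0.452% of W8 (0.417 to 0.491) and 0.209% of WM (0.182 to 0.24), and 0.258% and 0.216% in the skin cultures. The most abundant locus in W12 was lysozyme g-like (PB.18131), a bacterial wall hydrolase, with 444, 313 and 95 counts, 1.54-fold over W8 (1.33 to 1.78) and 3.93-fold over WM (3.15 to 4.96), below the fold needed for a call against W8. Of the 17 interferon-linked loci tested, 1 exceeded both octaploid mouth cultures, beside 1.83% of all loci. It was the putative helicase mov-10-B.1 (PB.23678), whose mammalian relative acts against RNA viruses, with 20, 5 and 5 counts. Tyrosine-protein kinase JAK1-like (PB.11386), a cytokine receptor kinase, had 134, 59 and 150 counts and so turned its sign with the octaploid library.

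Xenobiotic genes were low in the dodecaploid culture, where the list took 0.27%, beside 0.408% of W8 and 1.5% of WM. Skin culture WS2 was close at 0.293%. Cytochrome P450 3A27-like (PB.12844) had 189, 342 and 1072 counts, with W8 1.67-fold (1.39 to 2.00) and WM 6.74-fold (5.77 to 7.91) over W12, and 539 and 162 in the skin cultures. Transcripts named cytochrome P450 1A1, the classical target of the aryl hydrocarbon receptor, summed to 17, 30 and 264 counts. The interval of W8 over W12 for them was 0.869 to 3.14, so a difference was not detectable at this depth, whereas WM was 18.5-fold over W12. The receptor itself had 1, 1 and 4 counts. Of the cornified envelope proteins, transglutaminase K had 12, 21 and 16 counts, envoplakin 55, 70 and 74, and periplakin 65, 71 and 94, with intervals of W12 over W8 that included 1. Filamin-A had 4, 5 and 1 counts and sulfhydryl oxidase 1 had 2, 2 and 1, too few to compare.

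Seen over all 31 lists, 6 differed at least 1.5-fold with an interval beyond 1 between W12 and W8, 16 between W8 and WM, and 3 between the skin cultures. In W12 the summed share lay between those of the octaploid mouth cultures for 14 of the 31. With no fold required, it was higher than in all 4 octaploid white cultures for 7 lists and lower than in all 4 for 7. In all, 3 lists were at least 1.5-fold lower in W12 than in both octaploid mouth cultures and 0 were higher. These were the lysosome list, the xenobiotic list and mucins with trefoil factors, the last with 29 counts in all in W12. Without the most abundant locus of each list, none of the 3 kept that gap against both (0 lower), and 1 other list was higher.

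**Figure D3:**
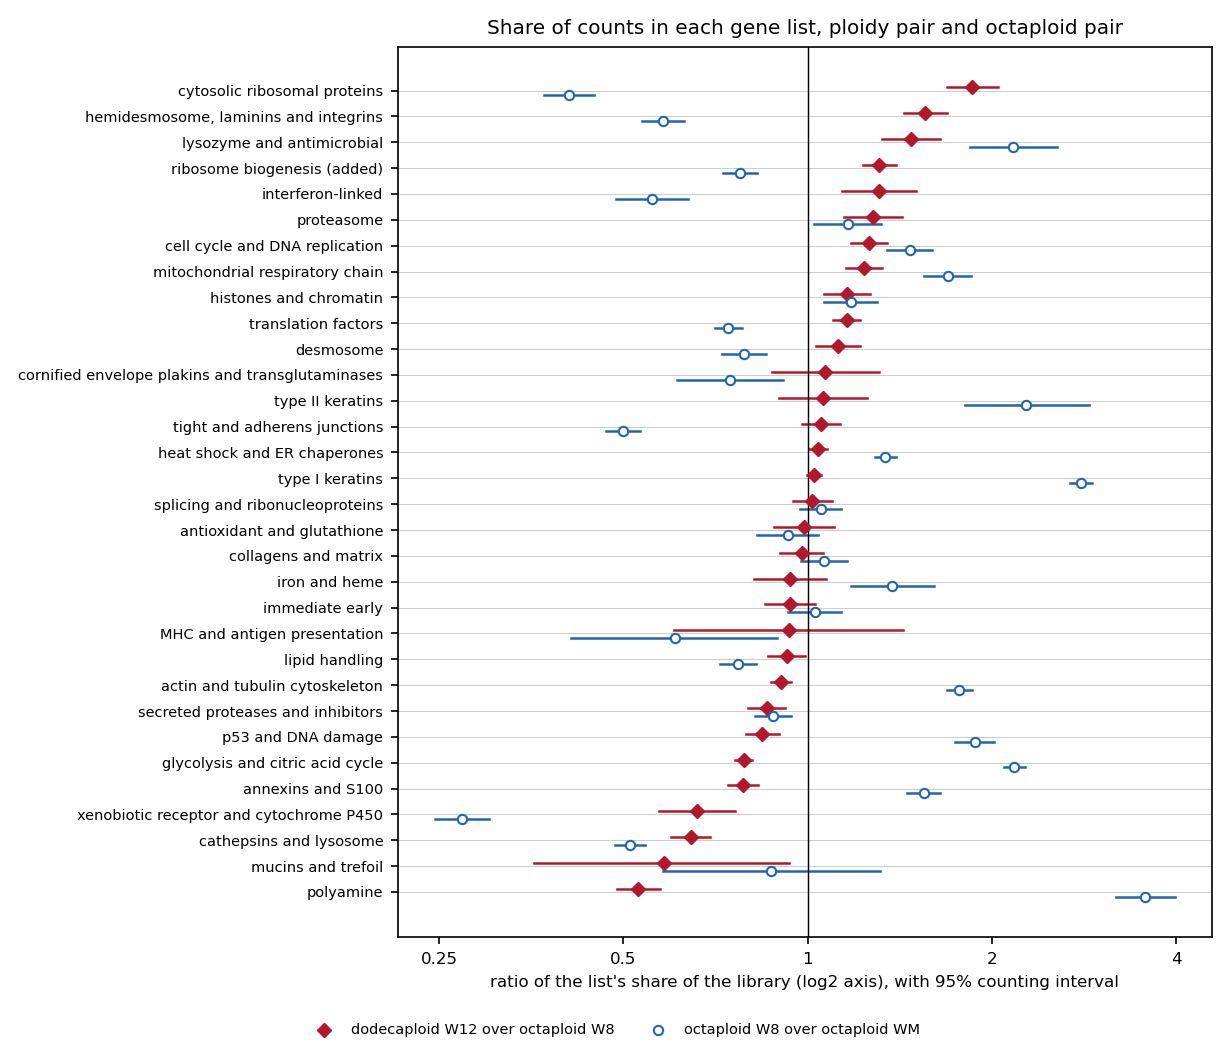
Ratio of the summed share of each gene list (log2 axis, bars are 95% counting intervals) for W12 over W8 (red diamonds) and for octaploid W8 over octaploid WM (open blue circles), including the ribosome biogenesis list that was added later. Of the 31 lists without the added one, 6 were at least 1.5-fold apart in the ploidy pair and 16 in the octaploid pair.

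The cell type labels fitted the summed epithelial and connective tissue markers. Epithelial markers took 10.9% of W12, 10.4% of W8 and 5.08% of WM, beside 0.405% of the green fibroblasts and adipocytes. Type I keratins, which made up most of that sum in W12 and W8, were at 0.00288% of the green culture. The type II keratins among these markers went the other way, at 0.308% of the green culture beside 0.252%, 0.237% and 0.104% of W12, W8 and WM. Connective tissue markers took 0.134%, 0.148% and 0.178%, beside 3.89% of the green culture and 0.223% of the mouth rim tissue. Of their 17 loci, 5 reached the count minimum in the pair of W12 and W8, with 0 called, beside 10.5% of all loci. Decorin (PB.7475), the most abundant of these markers in W12, had 50, 61 and 14 counts, beside 802 in the green fibroblasts and adipocytes. In CPM, decorin stood at 435 in W12, 489 in W8 and 145 in WM, beside 3300 in the green culture. The mouth rim tissue held less decorin than W12 and W8, at 167 CPM. Its share in W12 was 3.01-fold that of WM (1.64 to 5.89). Vimentin-like (PB.3825), the filament protein of connective tissue cells, had 0 counts in W12 and W8 and 3 in WM. Pigment and electroreceptor markers matched 1 locus each and had no count in the mouth cultures. The mouth rim tissue held 0 and 1 counts of them, so they cannot show whether such cells were absent. Muscle markers had 2, 2 and 0 counts. Of the immune markers the class II gamma chain had 1, 1 and 2 counts, beside 693 in the mouth rim tissue, so that the immune share (0.57%, 0.361% and 0.184%) was made of lysozymes. The blood list rested on 5-aminolevulinate synthase (PB.17729), whose deposited name does not tell the erythroid from the general enzyme of heme synthesis, with 16, 35 and 46 counts. Mucous secretion markers took 0.0244%, 0.0425% and 0.0217%, and integumentary mucin C.1-like (PB.17949) had 13, 38 and 18 counts.

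W12 and W8 shared loci that had no count in the other white cultures, and lacked others. These loci were looked for after the data had been seen. At 4 of the 1758 loci with at least 20 counts over the pair, WM, WS1 and WS2 held none. They were a phospholipase A2 inhibitor and Ly6/PLAUR domain-containing protein-like locus (PB.25747; 26 counts in W12 and 21 in W8), elongation factor 1-alpha 1 (PB.28627; 9 and 26), interferon gamma receptor 1-like (PB.6485; 11 and 12) and an unnamed locus (PB.3786; 20 and 13). Conversely, 25 loci with at least 20 counts over WM, WS1 and WS2 had 0 in both W12 and W8, which allows up to 26.1 and 24.1 CPM, and 21 of the 25 had counts in all 3 others. The searches differ by construction, as the first asked for 0 counts in WM, WS1 and WS2 and the second only in W12 and W8. The loci that met the count minimum of the second were not counted, so 25 cannot be given as a share or set against 4. Follistatin-related protein 1b (PB.8827), a secreted glycoprotein, had 28, 31 and 31 counts in WM, WS1 and WS2. Ubiquitin-conjugating enzyme E2 J1-like (PB.5905), which acts in protein quality control at the endoplasmic reticulum, had 30, 26 and 18, and tyrosine-protein kinase Yes (PB.3234) 29, 27 and 18. None of these 3 names occurred at another locus with a count in any of the 5 cultures (0). Serotransferrin-2 (PB.16038), an iron carrier, had 16, 57 and 334 counts. Keratin locus PB.25257, described above, was also among the 25. No locus with at least 10 counts in W12 was at 0 in all 4 octaploid cultures (0 loci), and none with as many in W8 was at 0 in the other white cultures (0). The 4 and the 25 loci were chosen for 0 counts on 1 side, so the search itself fixed that they set apart W12 and W8, which differ in ploidy. Of the 25, 3 were also at 0 in WM, and 11 had at least 10 counts in WM. Whether both cultures came from related fish or were handled together is not given in the labels and was not tested.

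**Figure D4:**
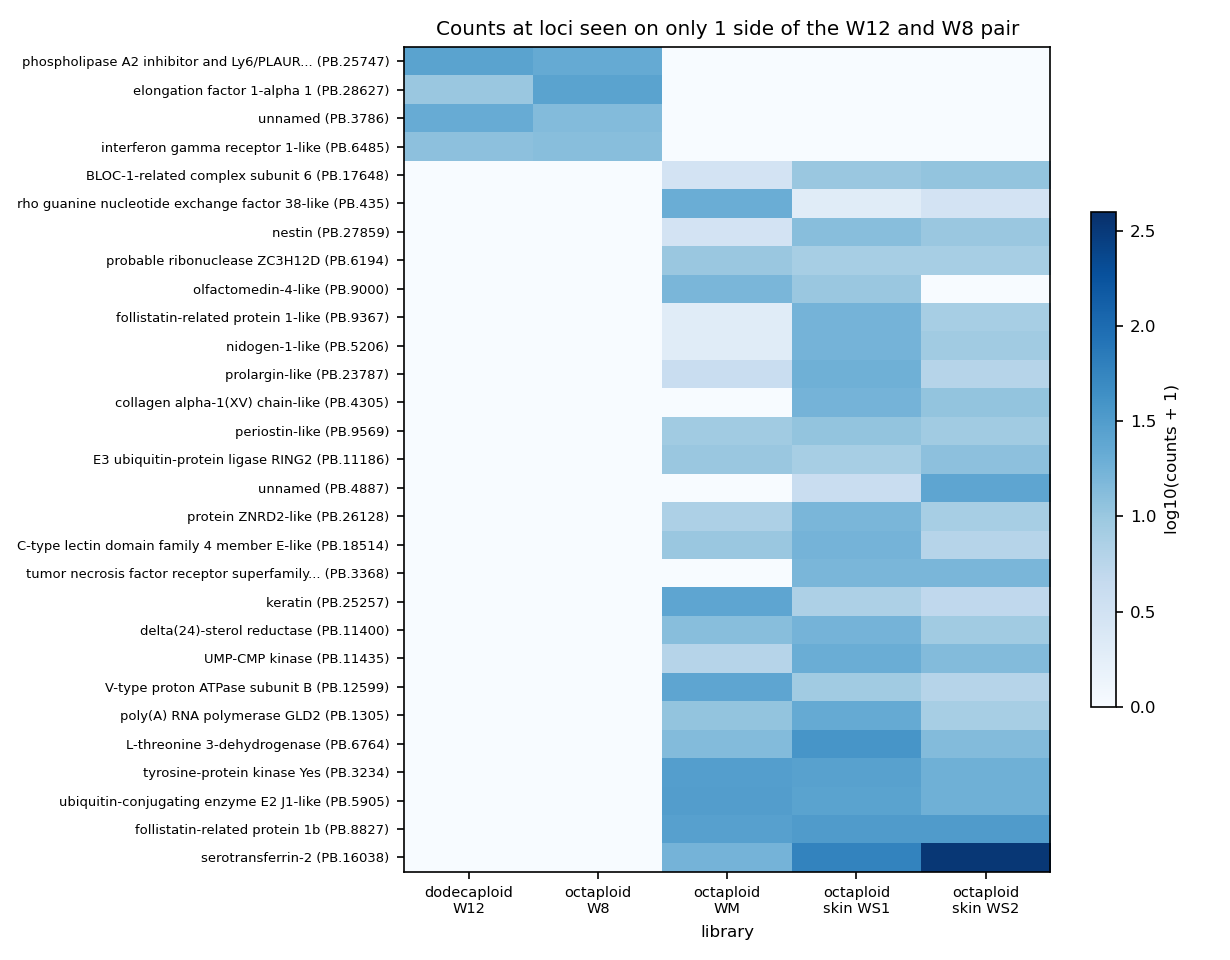
Counts (colour, log10 of counts + 1) in the 5 white cultures at the 4 loci that among these had counts only in W12 and W8 and the 25 loci that had them only in WM, WS1 or WS2. The columns of W12 and W8 are empty at the same 25 rows by construction, and 21 of these rows hold counts in each of the other 3 libraries.

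Sturgeon genomes keep many genes as duplicate copies from old genome doublings. To ask whether the copies shared expression alike, the share of the first locus was compared at 247 protein names, not cut at a comma, that sat at exactly 2 loci and held at least 20 counts over both in each mouth culture. This share does not depend on library scaling, although reads of near-identical copies may be assigned to the wrong one. Of the 247 names, 239 had locus numbers over 50 apart. The others sat at closer numbers, so not every pair need stem from a genome doubling. The exact 95% intervals of W12 and W8 were apart at 3 of 247 names, those of W12 and WM at 18 and those of W8 and WM at 20. At none (0) was W12 apart from both octaploid cultures on the same side. The 3 names were eukaryotic translation initiation factor 4 gamma 2-like (PB.19132 and PB.20464), with 26.2% of counts from the first locus in W12, 17.7% in W8 and 34.6% in WM, heat shock cognate 70 kDa protein (PB.24767 and PB.24769), with 36.8%, 42.8% and 31.6%, and tyrosine-protein kinase JAK1-like (PB.9926 and PB.11386), with 36.5%, 55.0% and 38.0%. In each, W8 and WM were themselves apart. The heat shock cognate pair was among those with close locus numbers. The median absolute difference was 1.68 percentage points between W12 and W8 and 2.04 between W8 and WM. Names with all their counts at a single locus in each library, such as B-cadherin-like, enter these medians at 0. The largest absolute difference was 38.2 points between W12 and W8, at a name whose intervals were not apart, and 48.5 between W8 and WM.

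**Figure D5:**
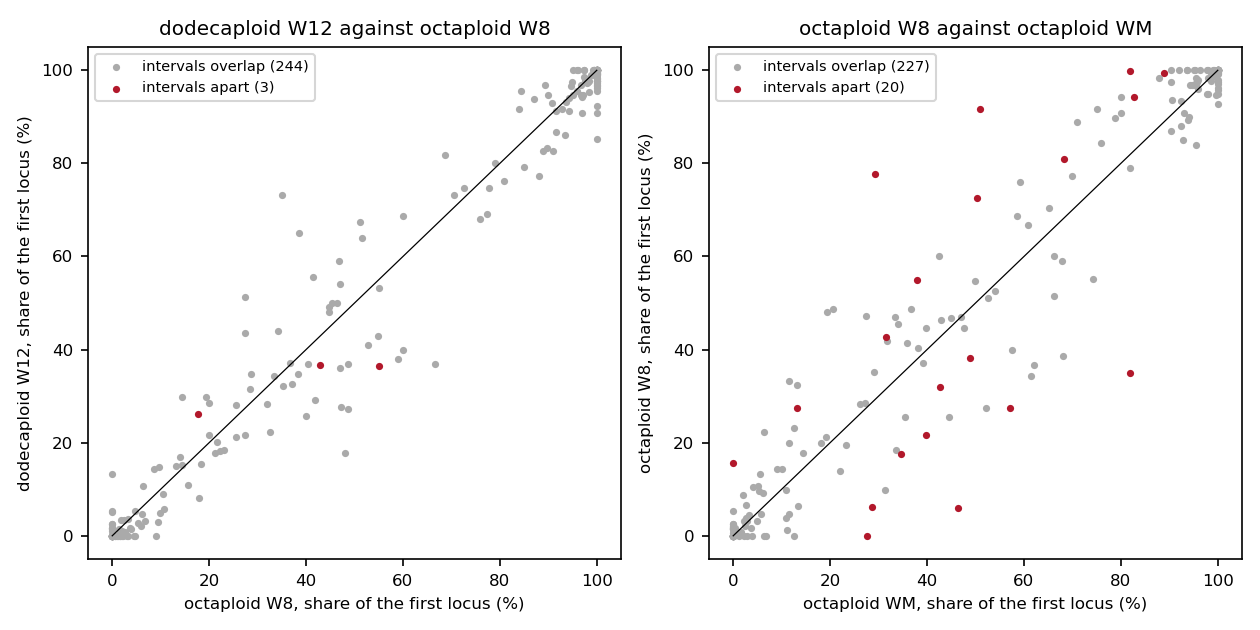
Share of counts from the first locus of 247 duplicate pairs (percent), W12 against W8 on the left and octaploid W8 against octaploid WM on the right, with pairs whose exact 95% intervals were apart in red. Red points number 3 on the left and 20 on the right.

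The number of loci and transcripts seen was not raised in the dodecaploid culture beyond the octaploid ones. Drawn down to the 90002 counts of the shallowest white culture, W12 was expected to show 6208 loci, W8 5932, WM 6378, WS1 6562 and WS2 6407. The expected transcripts were 13685, 12668, 14620, 14734 and 14761. W12 therefore stood 4.64% above W8 in loci and 8.03% above it in transcripts, and below WM and both skin cultures in each. At the 229 loci with at least 50 counts in each mouth culture, the leading transcript was the same in W12 and W8 at 222, in W12 and WM at 210 and in W8 and WM at 211. Its median share of the locus was 83.7% in W12, 84.8% in W8 and 83.8% in WM.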

How the data were processed

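The deposited table held whole-number full-length read counts per transcript. Per the methods, the authors reverse-transcribed 300 ng of total RNA with 15 PCR cycles, sequenced the pooled barcoded libraries on a Sequel II, clustered reads with IsoSeq3 (3.4.0), aligned them to the sterlet genome with an aligner not given in the sources used here, filtered with Sqanti3 (4.1) at 3 or more supporting reads, and named transcripts by blastp (2.14.1) against sterlet proteins. Names cut at a comma were kept as deposited. Reads are PCR products without molecular identifiers, so intervals cover counting error only.

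Counts were summed per PacBio locus and divided by the library total; a locus took its most abundant name. Ratios carried exact conditional (Clopper-Pearson) 95% intervals, shares Wilson intervals, and a count of 0 stood as 3 for a fold. Medians of log2 ratios added 0.5 to each count. Named loci were the 12 most extreme each way among those beyond both octaploid mouth cultures with at least 30 counts on the higher side, the 10 most abundant of W12, in each list the most abundant locus and up to 4 beyond both octaploid mouth cultures, the study's genes, and envoplakin, periplakin and plakophilin; some further loci were named after their values were seen. The members, lists and rules were chosen with earlier results of these data known. The call rule was tested on simulated counts that held counting error and set changes only. They lacked the further spread between these libraries, so the test does not show how the rule performs under it. Python 3.11.15, scipy 1.17.1, edgeR 4.0.16 and DESeq2 1.42.0 (scaling factors only) were used. Alternatives covered scaling, count minimum, fold, interval, unit of summing and the octaploid side.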

Additional observations from a re-analysis of the deposited data

How the results depend on the processing

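No paired analysis was possible because the dodecaploid group held 1 library and no result came from a test. The calls between W12 and W8 (185) became 307 with no filter on low counts, 32 at 100 or more counts, 62 with an interval at an error rate of 0.001 (the stricter interval), 329 at 1.5-fold, 20 at 4-fold, 10 with the interval wholly beyond 2-fold, 582 with WM as the octaploid side and 373 with W8 and WM summed, and stayed between 185 and 217 under the other 6 settings. The loci beyond both octaploid mouth cultures (75) became 20 at 100 or more counts, 19 with the stricter interval, 155 at 1.5-fold, 4 at 4-fold, all lower, 1 with the interval wholly beyond 2-fold (integrin alpha-6-like), 25 against all 4 octaploid white cultures, with the count minimum taken over these libraries, and 185 to 582 when an octaploid replicate was left out. The calls between W8 and WM (588) became 889 with no filter, 141 at 100 or more counts, 363 with the stricter interval, 183 at 4-fold and 209 with the interval wholly beyond 2-fold. With DESeq2 size factors the loci beyond both split into 36 higher and 43 lower, and those between W8 and WM into 281 and 283, in place of 215 and 373. The order of the pairs held at 100 or more counts, a setting chosen after seeing the data, with chi-squares per degree of freedom of 10.9, 43.6 and 47.3. The 3 lists beyond both octaploid mouth cultures became 6 to 14 when an octaploid replicate was left out and 1, a higher one, without each list's most abundant locus. The fewer libraries, loci or looser limits of these settings make these counts differ by construction.

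Among lists at least 1.5-fold apart between W12 and W8, the ratio of W12 reversed against WM for the hemidesmosome list (0.904), ribosomal proteins (0.757), polyamine (1.88) and mucous secretion markers (1.12). Among those of the 84 named loci that were called between W12 and W8, it reversed for JAK1-like PB.11386 (0.752), 60S acidic ribosomal protein P0 (0.712) and ornithine decarboxylase-like (4.32). Outside these 84, laminin subunit beta-3, gap junction alpha-1 and cathepsin Z-like also stood above W8 and below WM. Further called loci were not checked for reversal. Lists under 1.5-fold whose intervals lay beyond 1 on opposite sides against W8 and WM were desmosome (1.12 and 0.882), interferon-linked (1.31 and 0.729), translation factors (1.16 and 0.86), glycolysis and citric acid cycle (0.786 and 1.71), actin and tubulin (0.904 and 1.6), annexins (0.784 and 1.21) and p53 (0.844 and 1.58). Without its most abundant locus it reversed for mucins and trefoil factors (1.08), mucous secretion markers (1.08) and polyamine (1.01). Of 503 ratios of 84 named loci recomputed under other settings, 413 stayed inside the main interval. Duplicate pairs apart (3) and detection at equal depth did not move. With 1 dodecaploid library, spread between dodecaploid cultures is unknown, and loci under about 20 counts per pair were too shallow for a call.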
